A study of Mus musculus with 4 samples.

Results

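Gene read counts were analysed for 10 genes that set the pace of the G1 phase, among 45232 gene identifiers counted in 4 RNA sequencing libraries of mouse leukemia cells. The members, chosen by gene symbol with the fold changes of these same libraries known, are the INK4 inhibitors Cdkn2a, Cdkn2b, Cdkn2c and Cdkn2d, the CIP/KIP inhibitors Cdkn1a and Cdkn1b, the kinases Cdk4 and Cdk6, and the D cyclins Ccnd2 and Ccnd3. Their values in the contrast between the 2 groups of libraries are therefore given as a description. Each symbol matched 1 identifier, and all 10 passed the filter on low counts, in which 15591 genes were kept.

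The cells were L-GMPs, leukemic cells that resemble granulocyte-macrophage progenitors, flow-sorted from secondary recipient mice of a leukemia driven by the fusion oncoprotein MLL-AF9. Both groups carry this leukemia, and in both the cells were taken when the mice died. One group is labelled Scr and the other miR-99 KD, which the labels do not spell out, with 2 mice in each and 1 library per mouse. As the labels list it, the sort required the reporters tdTom and GFP together with the surface markers CD34, CD16/32, c-Kit and Sca-1. Of the genes behind that gate, Kit, Cd34 and Fcgr3 held between 232 and 482 CPM in every library. CPM is a gene's count scaled to its library's total. Fcgr2b, also behind the gate, held 117 to 153 CPM. Kit had 453 and 424 CPM in Scr against 298 and 232 CPM, without overlap of the groups (−0.67 ± 0.19 on the log2 scale, edgeR adjusted p 0.580). Ly6a, which encodes Sca-1, had 4, 8, 5 and 4 counts in Scr 1, Scr 2, miR-99 KD 1 and miR-99 KD 2. It did not pass the filter, although the labels list Sca-1 in the gate, and the reason was not tested. The sources used here do not say whether the 4 recipients were given cells of 1 primary leukemia.

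D cyclins bind the kinases Cdk4 and Cdk6, and the active pair phosphorylates the Rb family, which releases E2F factors and lets a cell enter S phase. INK4 proteins bind Cdk4 and Cdk6 and keep D cyclins away from them, while CIP/KIP proteins bind cyclin and kinase complexes and mainly restrain Cdk2. Cdk6 is strongly used by blood progenitors and by leukemias with MLL fusions.

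The microRNAs that the group label names are, by their family name, those below, and their levels were not measured here. They are shown with the seed (bases 2 to 8) in capitals, because the seed is the part that pairs with target transcripts. Their mature sequences, from RefSeq on GRCm38.p6, share that seed.
mmu-miR-99a-5p: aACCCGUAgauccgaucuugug
mmu-miR-99b-5p: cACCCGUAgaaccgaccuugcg
mmu-miR-100-5p: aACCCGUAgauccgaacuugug

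The longest annotated 3' UTR of each of the 10 members was searched on the transcript strand for TACGGGT, the match to seed bases 2 to 8, and for ACGGGTA, the match to bases 2 to 7 followed by A. The 2 motifs overlap in 6 letters. None of the 10 held either one, and over all genes with an annotated 3' UTR 1.90% did (399 of 21042). The searched UTRs ran from 264 bases (Cdkn2a) to 10217 bases (Cdk6). The absence of a match says only that these letters are not in these windows.

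Library totals ran from 38458519 to 42674407 gene counts. Scr 1 stood apart from the other 3 libraries, with at least 1 count in 28573 genes against 21372 to 24038, and with 51.9 CPM in olfactory receptor genes, a family of sensory neurons, against 4.78 to 15.0 CPM. The mitochondrial share of counts moved with the groups, at 0.650% and 0.637% in Scr against 0.853% and 1.16% in miR-99 KD, and its part in the members' values was not tested. Values that rest on Scr 1 are given with and without that library. List medians without Scr 1 were added after seeing the data.

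Cdkn2c, which encodes the INK4 inhibitor p18, was the member with the widest difference between the groups. It lies at chr4:109660876-109667189 on the minus strand of GRCm38 (ENSMUSG00000028551). Scr 1 and 2 held 18.7 and 12.3 CPM of it, from 720 and 516 counts, and miR-99 KD 1 and 2 held 195 and 104 CPM, from 8319 and 4410 counts. Both miR-99 KD libraries lay above both Scr libraries, and the lower of the former was 5.54 times the higher of the latter. The libraries of a group differed by 1.88 times within miR-99 KD and by 1.52 times within Scr.

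Cdkn2c averaged 15.5 ± 4.52 CPM over the Scr libraries (SD, n = 2) and 149 ± 64.5 CPM over the miR-99 KD libraries (SD, n = 2), a ratio of 9.62. The fitted log2 fold change was 3.34 ± 0.42 (SE), rank 38 from the top among 15591 genes. Log2 fold changes of 3 or more were found in 46 genes, 0.295% of those tested. In sorted bulk cells, a different number of cells that express a gene and a different amount of RNA per cell cannot be told apart.

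The other INK4 gene with substantial counts, Cdkn2d, did not share this difference. Cdkn2d encodes p19, an INK4 protein whose transcript is common in blood cells. Scr 1 and 2 held 86.6 and 74.9 CPM of it against 67.9 and 95.2 CPM for miR-99 KD 1 and 2, so the lowest and the highest value were both in miR-99 KD. Its log2 fold change was 0.07 ± 0.22.

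Cdkn2a and Cdkn2b, the neighbouring INK4 genes of chromosome 4 that are known for their silencing in proliferating cells, were near the bottom of the measured range. Cdkn2a had 43, 52, 45 and 16 counts in Scr 1, Scr 2, miR-99 KD 1 and miR-99 KD 2, which is 1.12, 1.24, 1.05 and 0.376 CPM. Cdkn2b had 36, 29, 39 and 15 counts in the same order, which is 0.936, 0.693, 0.914 and 0.353 CPM. For both genes miR-99 KD 2 was the low library, while miR-99 KD 1 was close to the Scr libraries. Cdkn2a encodes both p16Ink4a and p19Arf from different first exons, and counts per gene do not separate these transcripts. The log2 fold changes were −0.66 ± 0.59 for Cdkn2a, which was −0.063 without miR-99 KD 2 and −1.55 without miR-99 KD 1, and −0.29 ± 0.58 for Cdkn2b.

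**Figure D1:**
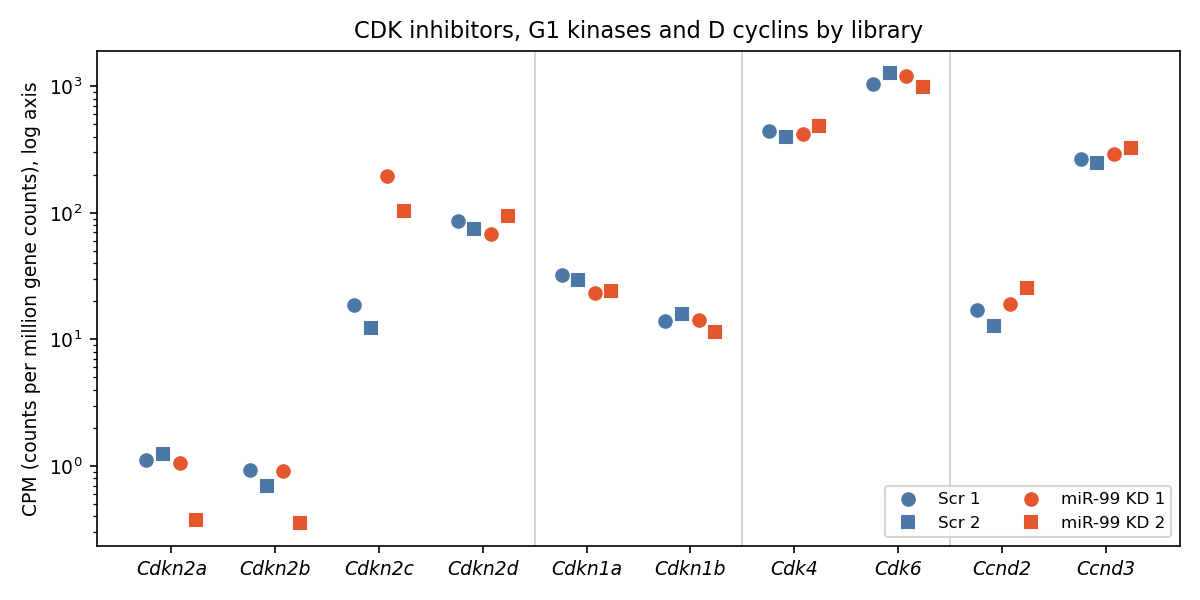
CPM of each member (log axis) in the 2 Scr libraries (blue) and the 2 miR-99 KD libraries (orange), with circles for replicate 1 and squares for replicate 2. Cdkn2c lies at 12.3 and 18.7 CPM in Scr but at 104 and 195 CPM in miR-99 KD, while the other members differ less between the groups. For Cdkn2a and Cdkn2b the miR-99 KD 2 symbol lies apart, at 0.376 and 0.353 CPM.

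The make-up of INK4 transcripts differed between the groups. Levels of different genes were compared per length, as CPM per kilobase of annotated exon. On that scale Cdkn2c made up 11.0% and 8.54% of the 4 INK4 genes in Scr 1 and 2 but 61.9% and 38.7% in miR-99 KD 1 and 2. Cdkn2d made up 86.5% and 88.6% of them in Scr against 36.8% and 60.7% in miR-99 KD. The INK4 sum was 63.6 and 53.7 CPM per kilobase in Scr against 117 and 99.7. Divided by the sum of Cdk4 and Cdk6, it came to 0.302 and 0.252 in Scr against 0.547 and 0.449. These ratios are of transcripts and say nothing of protein.

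**Figure D2:**
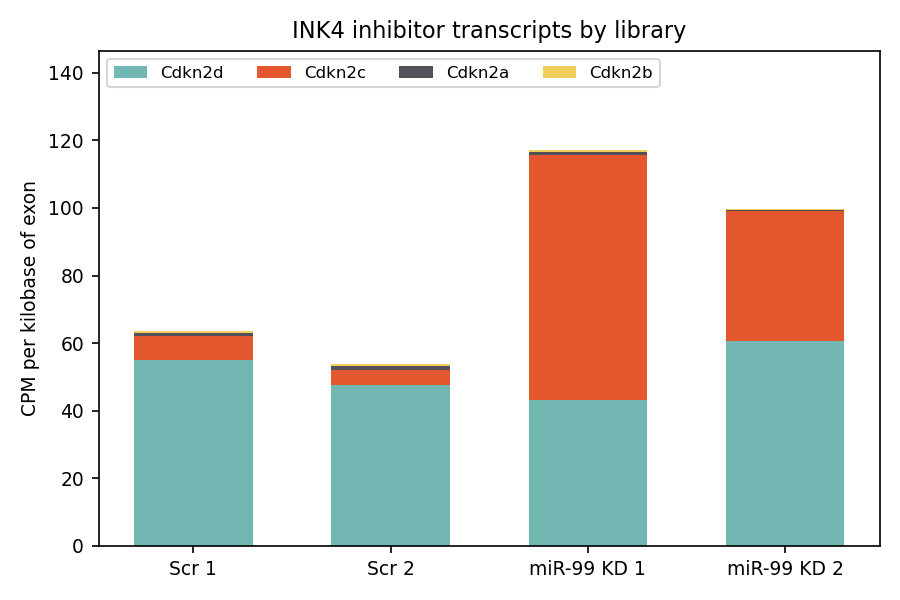
Stacked bars of CPM per kilobase of exon for the 4 INK4 genes in each library, 1 bar per library with no error. The Cdkn2c part grows from 6.97 and 4.59 in Scr to 72.6 and 38.6 in miR-99 KD, while the Cdkn2d part lies between 43.1 and 60.5 in every library.

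The CIP/KIP inhibitors were slightly lower or level in miR-99 KD. Cdkn1a encodes p21, the inhibitor best known as a p53 target. Scr held 32.1 and 29.2 CPM of it against 23.3 and 24.1 CPM, so that both miR-99 KD libraries lay below both Scr libraries. Its group means were 30.7 ± 2.04 and 23.7 ± 0.605 CPM (SD, n = 2), with a log2 fold change of −0.32 ± 0.18.

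Cdkn1b encodes p27, an inhibitor that is largely controlled by the breakdown of its protein. Scr held 13.9 and 15.8 CPM of it against 14.2 and 11.4 CPM, and the groups overlapped. Its log2 fold change was −0.17 ± 0.25. The third family member, Cdkn1c (p57), which is not among the 10, went the other way, from 4.63 and 6.76 CPM in Scr to 8.95 and 15.0 CPM (1.11 ± 0.40 on the log2 scale, edgeR adjusted p 0.621).

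The 2 kinases had the highest levels of all members and differed little between the groups. Cdk6 had 1040 and 1269 CPM in Scr against 1203 and 995 CPM in miR-99 KD. Its lowest and its second highest library were both miR-99 KD, and its log2 fold change was −0.02 ± 0.22. Cdk4 had 442 and 398 CPM in Scr against 417 and 489 CPM, with a log2 fold change of 0.17 ± 0.15. Per kilobase, Cdk4 was above Cdk6 in each library, by 1.83, 1.35, 1.49 and 2.12 times in Scr 1, Scr 2, miR-99 KD 1 and miR-99 KD 2. Exons of Cdk4 share 19.7% of their bases with the opposite-strand gene Tspan31, and no source used here gives the strand setting of the counting.

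Both D cyclin members had somewhat higher values in miR-99 KD. Ccnd3, the more abundant of them, had 267 and 248 CPM in Scr against 293 and 324 CPM, without overlap of the groups. Its log2 fold change was 0.32 ± 0.14. A Ccnd3 pseudogene, Ccnd3-ps, had 299 to 420 counts per library against 10255 to 13779 for Ccnd3, and reads that fit both are uncertain.

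Ccnd2 was the scarcer D cyclin, with 17.0 and 12.7 CPM in Scr against 19.1 and 25.5 CPM. Both miR-99 KD libraries lay above both Scr libraries, the nearest pair being miR-99 KD 1 and Scr 1. The group means were 14.8 ± 3.04 and 22.3 ± 4.55 CPM (SD, n = 2), and the log2 fold change was 0.65 ± 0.25. The third D cyclin, Ccnd1, which is not among the 10, had 21.6 and 25.2 CPM in Scr against 23.8 and 22.8 CPM (0.04 ± 0.22 on the log2 scale, edgeR adjusted p 0.962).

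**Figure D3:**
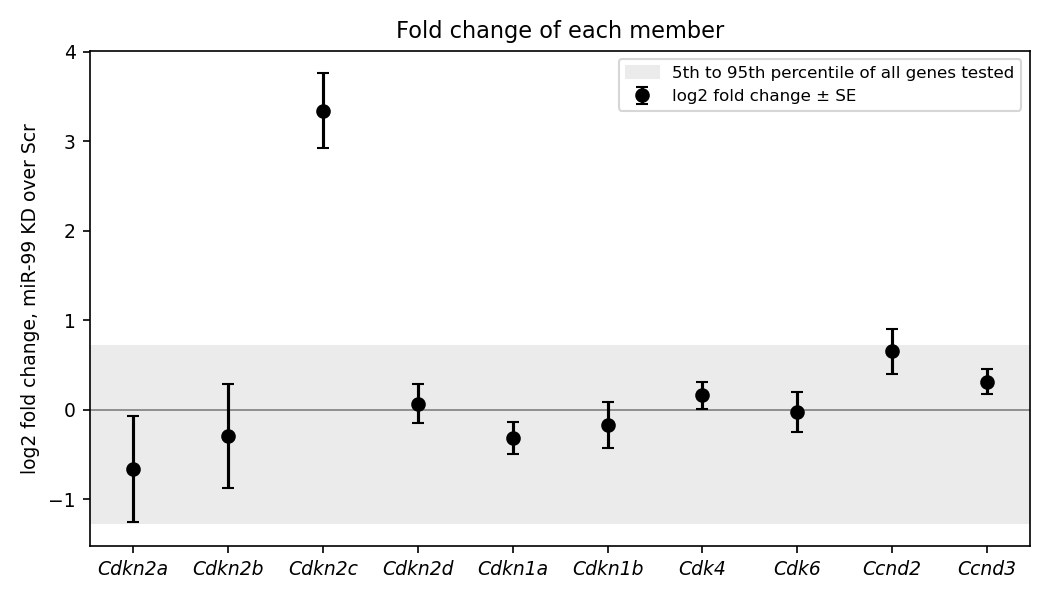
Log2 fold change of miR-99 KD over Scr with its standard error for each member, from the fit over all genes, with the 5th to 95th percentile of all 15591 genes as a grey band (−1.26 to 0.72). Cdkn2c at 3.34 lies above the band, and the other 9 members lie inside it, between −0.66 and 0.65.

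Log2 fold changes were above 0 in 5 of the 10 members and below it in the other 5, whereas 49% of all genes were above 0. The median was 0.02 in the members and −0.01 over all genes. An absolute log2 fold change of 1 or more was found in 1 member, and in 10.1% of all genes. On the scale with trimmed mean of M values (TMM) factors, both miR-99 KD libraries lay above both Scr libraries in 4 members (Cdkn2c, Cdk4, Ccnd2 and Ccnd3) and below them in 1 (Cdkn1a). The shares over all genes were 19% and 25.3%. On CPM with no factors, a scale added after seeing the data, Cdk4 overlapped between the groups and Cdkn2a no longer did. The tally was then 3 members above and 2 below (Cdkn1a and Cdkn2a), against 12.7% and 28.3% of all genes.

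By edgeR's quasi-likelihood test with Benjamini-Hochberg adjustment, 0 of the 10 members were called, as were 0% of all genes, and limma-voom called 0 members and 0% of genes. With no adjustment, an edgeR p under 0.05 was found for 1 higher member, Cdkn2c, and 0 lower members, against 2.66% and 5.23% of all genes. DESeq2 called 1 member higher, again Cdkn2c, and 0 lower, against 0.725% and 0.949% of genes. Leaving out Scr 1, with the lone Scr library taken to vary as the miR-99 KD libraries do, edgeR called 1 member higher, Cdkn2c, and 0 lower, against 0.993% and 0.855% of genes, and the log2 fold change was 3.65. With upper-quartile factors edgeR called Cdkn2c among the 0.0641% of genes called higher. Because the members were chosen with this contrast known, nothing is read from these counts.

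The order of levels per kilobase was Cdk4, Cdk6, Cdkn2d, Ccnd3, Cdkn2c, Cdkn1a, Cdkn1b, Ccnd2, Cdkn2a and Cdkn2b by the mean of the 4 libraries. Cdk4 stood at 134 ± 12.2 CPM per kilobase (SD, n = 4), Cdk6 at 80.5 ± 9.31 and Cdkn2d at 51.5 ± 7.72, and the ranges of these 3 over the libraries did not overlap. Over all libraries the range of Cdkn2c (30.7 ± 31.9), from 4.59 to 72.6, overlapped those of Cdk6, Cdkn2d, Ccnd3 (32.3 ± 3.75) and Cdkn1a (7.65 ± 1.19). That spread holds the difference between the groups. Cdkn2c lay below Ccnd3 and Cdkn1a in both Scr libraries, and above them in both miR-99 KD libraries. Cdkn1b (3.04 ± 0.398) and Ccnd2 (1.97 ± 0.570) overlapped, as did Cdkn2a (0.809 ± 0.332) and Cdkn2b (0.521 ± 0.195). By group means, Cdkn2c ranked 6 in Scr, behind Cdkn1a, but 3 in miR-99 KD, ahead of Cdkn2d. That lead came from miR-99 KD 1 (72.6 against 43.1). In miR-99 KD 2 Cdkn2c was below Cdkn2d (38.6 against 60.5). With the longest transcript in place of all exons, Ccnd3 (73.4) moved ahead of Cdkn2d (57.0). The places of Cdkn2c within libraries and groups were worked out with all exons only.

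The genes around Cdkn2c were examined by position, in a choice made after the values of Cdkn2c were seen. Within 100 kb on either side, 5 other annotated genes are among the gene identifiers counted, and 3 of them passed the filter. In all 3 both miR-99 KD libraries lay above both Scr libraries, as in 19% of all genes tested. The noncoding transcript 9630013D21Rik lies 3023 bases away, on the same strand beyond the 3' end of Cdkn2c. Its level was 5.93 and 0.310 CPM in Scr 1 and 2, and 39.5 and 41.3 CPM in the other 2 libraries. The miR-99 KD libraries were close to each other, and the Scr libraries, with 228 and 13 counts, were far apart. The log2 fold change was 3.81 ± 1.28 (edgeR adjusted p 0.621, DESeq2 adjusted p 0.0165), and 7.07 without Scr 1 (edgeR adjusted p 1.78e-21).

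Faf1, which encodes a FAS-associated factor, starts 9399 bases away on the other side and runs in the opposite direction. Scr held 8.32 and 46.7 CPM of it against 114 and 56.2 CPM, with miR-99 KD 1 highest, as for Cdkn2c. Scr 1 was far below Scr 2, and without it the log2 fold change went from 1.64 ± 0.94 to 0.91 (edgeR adjusted p 0.701 and 0.609). Gm12808, a pseudogene inside the span of Faf1, had 1.17, 1.24, 1.83 and 2.23 CPM (0.80 ± 0.30 on the log2 scale, edgeR adjusted p 0.631).

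**Figure D4:**
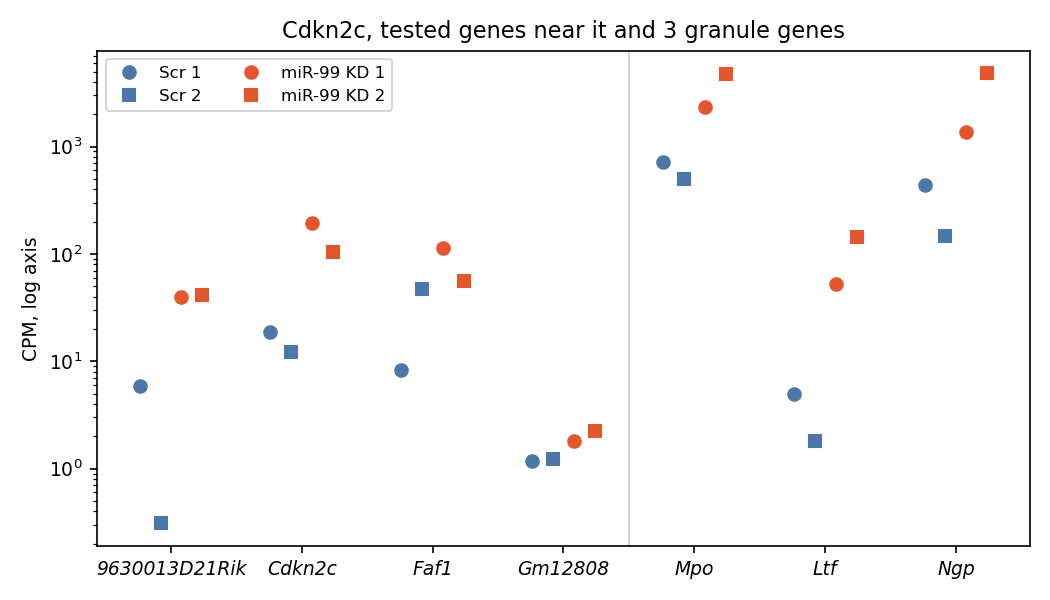
CPM (log axis) of Cdkn2c and the 3 tested genes within 100 kb of it, in order of position, and of the granule genes Mpo, Ltf and Ngp, in the 4 libraries. Cdkn2c is highest in miR-99 KD 1 (195 CPM), and Mpo, Ltf and Ngp are highest in miR-99 KD 2 (4714, 145 and 4821 CPM). Cdkn2c, Mpo, Ltf and Ngp are each higher in Scr 1 than in Scr 2, and higher still in both miR-99 KD libraries.

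Markers of granulocyte maturation, a state that the sorted progenitors can lead to, moved with the groups. Of 20 listed genes, all tested and none at 0 in any library, 16 had values above 0 on the log2 scale, and the median was 1.30 (1.63 without Scr 1). They summed to 7733 and 5264 CPM in Scr against 12307 and 26018 CPM. With TMM factors both miR-99 KD libraries lay above both Scr libraries in 14 listed genes and below in 2, Itgam and Padi4. The shares over all genes were 19% and 25.3%. The lactoferrin gene Ltf and the granule gene Ngp, named after their values were seen, were among the list's largest increases (4.94 and 3.48 on the log2 scale). Ltf had 4.97, 1.82, 52.6 and 145 CPM, and Ngp had 441, 146, 1358 and 4821 CPM, in Scr 1, Scr 2, miR-99 KD 1 and miR-99 KD 2. Cdkn2c was higher in miR-99 KD 1 than in miR-99 KD 2, in the reverse order of the granulocyte sum. Within Scr the order was the same, with Cdkn2c (18.7 and 12.3 CPM) and the granulocyte sum both higher in Scr 1. Both miR-99 KD libraries lay below both Scr libraries in the progenitor marker Kit, with the values given above. With TMM factors they lay above both Scr libraries in the gate genes Cd34, Fcgr3 and Fcgr2b. The log2 fold changes of these genes were 0.15, 0.21 and 0.30 (edgeR adjusted p 0.794, 0.741 and 0.668). On CPM with no factors only Fcgr2b of them stayed apart. The part of these marker changes in the values of Cdkn2c, Ccnd2 and Ccnd3 was not tested. Granulocyte genes called higher numbered 8 of 20 with DESeq2, against 0.725% of all genes, and 0 with edgeR. Before adjustment 12 of 20 were higher with an edgeR p under 0.05, against 2.66% of all genes.

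Marker lists of other cell types had smaller sums. Whether those transcripts came from other cells or from the leukemic cells was not tested. The monocyte and macrophage list summed to 3074 and 2672 CPM in Scr against 3449 and 5605 CPM, with all 14 genes tested and none at 0. That list was split, with 9 positive and 5 negative values. Vcan, a matrix proteoglycan gene of monocytes, was the 1 gene that DESeq2 called lower, at 10.9 and 8.41 CPM in Scr against 2.41 and 2.00 CPM, and F13a1 was the 1 called higher, at 328 and 301 against 512 and 623 CPM (DESeq2 adjusted p 5.26e-06 and 0.0321). EdgeR called neither (adjusted p 0.356 and 0.462). Summed levels of the erythroid list ran from 82.1 to 104 CPM in Scr and from 48.8 to 120 CPM in miR-99 KD. Most of these sums was in the globin genes Hbb-bs and Hba-a1. Of 10 tested erythroid genes 3 had positive and 7 negative values, with a median of −0.76. DESeq2 called Slc4a1 lower, at 5.88 and 17.4 CPM in Scr against 0.937 and 2.00 CPM (adjusted p 0.00464). EdgeR did not call it (adjusted p 0.552). The stroma and endothelium list, with 1 of 10 genes at 0 in each library but Scr 1, summed to 608 and 545 CPM in Scr against 352 and 276 CPM. Most of that difference was in Vcam1, an adhesion molecule gene, at 476 and 430 against 201 and 137 CPM, while the endothelial gene Pecam1 had 123 and 111 against 149 and 135 CPM. The T and NK cell list (114 to 167 CPM), the B cell list (75.0 to 107 CPM) and the megakaryocyte and platelet list (9.31 to 17.4 CPM) had sums that overlapped between the groups. Genes at 0 numbered 0 to 4 of 9, 0 to 2 of 8 and 1 to 3 of 7 per library. Pax5, Cd8a, Trbc1 and Ppbp, which define B cells, T cells and platelets, were at 0 in each library but Scr 1, which had 2 or 3 counts of each. Other genes of these lists had counts in every library. Most of each list's sum was in Nkg7 (4694 to 6784 counts), Cd79b (2510 to 3749) and Itga2b (237 to 628), respectively. Single genes still differed, and DESeq2 called lower the recombinase gene Rag2, at 28.8 and 30.3 CPM in Scr against 11.1 and 10.6 CPM, and the NK receptor gene Klrb1c, at 1.30 and 1.43 against 0.258 and 0.235 CPM (adjusted p 0.000116 and 0.0238). Neither was called by edgeR (adjusted p 0.398 and 0.421). Genes of these marker lists were named after their values were seen. Their part in the members' values was not tested either.

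Genes upstream and downstream of the members were followed in 6 lists, with 120 of 123 genes tested, and none of them was called by edgeR, DESeq2, limma-voom or by edgeR without Scr 1. Before adjustment, 3 were higher and 5 lower with an edgeR p under 0.05. These are 2.50% and 4.17% of the 120, near the 2.66% and 5.23% of all genes. Cyclins, kinases and phosphatases of G1, S phase and mitosis mostly had positive values, 16 of 17 tested, with a median log2 fold change of 0.28. With TMM factors both miR-99 KD libraries lay above both Scr libraries in 9 of them and below in 0, against 19% and 25.3% of all genes. On CPM with no factors these counts were 6 and 0, against 12.7% and 28.3%. Ccne2, cyclin E2, which activates Cdk2 at the entry into S phase, had 84.9 and 74.5 CPM in Scr against 98.8 and 114 CPM (0.48 ± 0.16 on the log2 scale, edgeR adjusted p 0.621).

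The list's median was 0.26 without Scr 1, with 15 of 17 values above 0. Some single values were smaller then, as in cyclin E1 and cyclin A2, named after their values were seen. Ccne1 had 7.70 CPM in Scr 1 and 25.6, 34.4 and 29.4 CPM in Scr 2, miR-99 KD 1 and miR-99 KD 2, and Ccna2 had 79.5, 251, 294 and 349 CPM. Their log2 fold changes were 0.95 ± 0.65 and 0.97 ± 0.61 with Scr 1 and 0.37 ± 0.45 and 0.41 ± 0.39 without it.

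Among the Rb and E2F factors 12 of 18 had a positive value, with a median of 0.16, which was 0.019 without Scr 1. Rb1, the retinoblastoma protein gene and the main substrate of Cdk4 and Cdk6, had 8.32 and 11.7 CPM in Scr against 17.0 and 21.6 CPM (0.98 ± 0.31, edgeR adjusted p 0.600). Lin9, of the DREAM and MuvB complexes that bind E2F-regulated promoters, had 42.6, 38.0, 45.5 and 56.2 CPM (0.39 ± 0.19, edgeR adjusted p 0.674). Both genes were higher in both miR-99 KD libraries. Without Scr 1 the log2 fold change was 0.78 for Rb1 and 0.48 for Lin9. Exons of Rb1 share 14.9% of their bases with the opposite-strand genes Lpar6 and Rcbtb2.

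E2F target genes of S phase were split, 12 positive and 10 negative of 22, with a median of 0.12 (0.057 without Scr 1). Pcna, the sliding clamp of DNA replication, had 129 and 121 CPM in Scr against 142 and 189 CPM (0.46 ± 0.19, edgeR adjusted p 0.655), and Cdc45, of the replicative helicase, had 127, 116, 137 and 151 CPM (0.30 ± 0.15, 0.673). The list summed to 5964 and 5853 CPM in Scr against 6074 and 5615 CPM, so the groups overlapped.

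Genes for the turnover of inhibitors and cyclins were 12 positive and 6 negative of 18, with a median of 0.21, but without Scr 1 only 6 were positive and the median was −0.067. Cks1b, the cofactor by which Skp2 recognises p27, had 162 and 134 CPM in Scr against 160 and 212 CPM (0.39 ± 0.19, edgeR adjusted p 0.674). Rnf123, a subunit of a ubiquitin ligase for p27 in G1, had 117 and 102 CPM in Scr against 83.4 and 56.3 CPM (−0.59 ± 0.25, edgeR adjusted p 0.659).

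Transcriptional regulators of these genes were 12 positive and 17 negative of 29, with a median of −0.058, and of −0.18 without Scr 1. The homeobox gene Hoxa9 had 301 and 351 CPM in Scr against 169 and 165 CPM (−0.92 ± 0.19, edgeR adjusted p 0.466), and its cofactor gene Meis1 had 359, 319, 230 and 196 CPM (−0.61 ± 0.16, 0.580). Both were lower in both miR-99 KD libraries.

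Targets of p53 other than Cdkn1a were 5 positive and 11 negative of 16, with a median of −0.17 (−0.22 without Scr 1). Pmaip1, which encodes the death protein Noxa, had 203 and 210 CPM in Scr against 117 and 69.5 CPM (−1.09 ± 0.31, edgeR adjusted p 0.580). Sesn2, a stress-induced sestrin, had 37.8, 38.7, 21.3 and 11.6 CPM (−1.16 ± 0.36, 0.595). Both genes were lower in both miR-99 KD libraries, as was Cdkn1a.

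**Figure D5:**
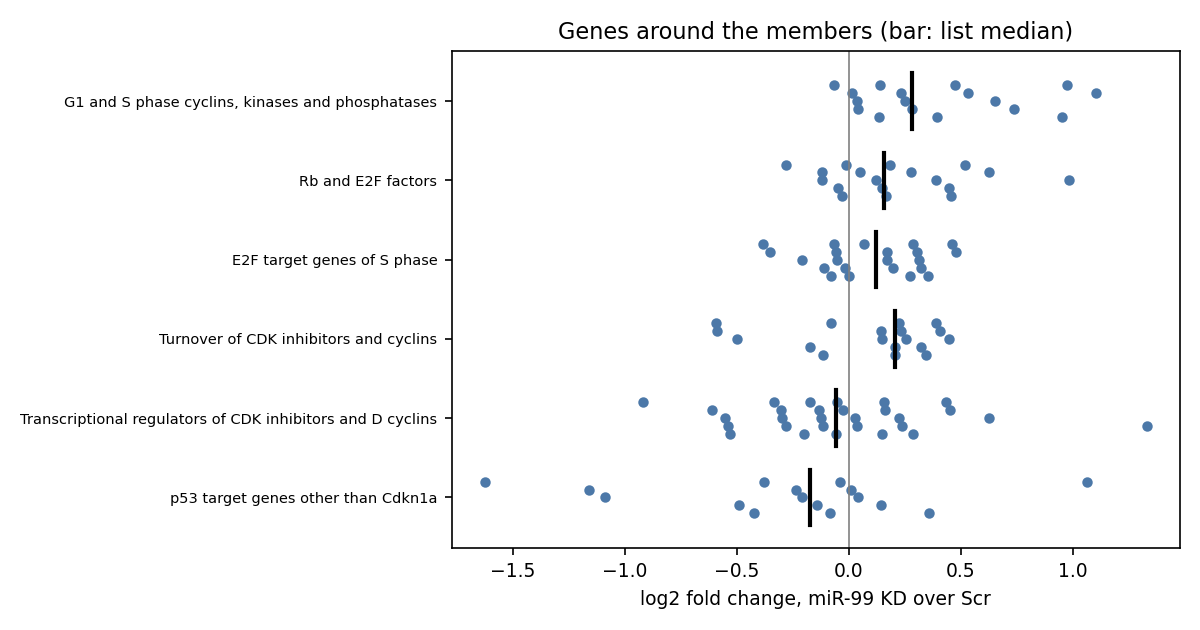
Log2 fold change of miR-99 KD over Scr for the tested genes of 6 lists around the members, 1 point per gene with the vertical position inside a list set only for legibility, and a bar at each list's median. The medians run from −0.17 (p53 targets) to 0.28 (cyclins, kinases and phosphatases), and no gene of these lists reaches the 3.34 of Cdkn2c.

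For each member the gene of the 120 with the most similar profile was found, by the root mean square difference of log2 CPM centred on the mean of the 4 libraries. Nearest to Ccnd3 was Cdc45 (0.01 log2 units), to Cdkn2d Mnat1 (0.02), to Cdk4 Cdc20 (0.03), to Cdk6 Gadd45a (0.06), to Cdkn1b Mcm10 (0.08), to Cdkn1a Btrc (0.10) and to Ccnd2 Cdkn3 (0.12). Cdkn2b and Cdkn2a were both nearest to Dnmt1 (0.15 and 0.19), which had 548, 532, 543 and 251 CPM and was likewise low in miR-99 KD 2. Cdkn2c had no close counterpart in these lists, the nearest being Rb1 at 1.28 log2 units. With 4 libraries that share depth and scaling, many genes can match a profile, and the likeness is given as a description.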

How the data were processed

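RNA from flow-sorted cells was extracted with Trizol LS and made into libraries by SMARTer amplification, per the labels' protocols. The files hold unscaled counts of reads for each Ensembl gene as deposited. STAR, Picard, HTSeq and DESeq2, and the build mm9, are named in the submitters' processing notes. The sources used here give no version, annotation release or strand setting. The 5 categories that name no gene (43.7% to 49.7% of entries) stayed out. Symbols were matched by identifier (44585 of 45232). Coordinates, exon lengths and UTRs were taken by identifier from GENCODE M21 (GRCm38), with no conversion between builds.

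CPM is on library totals. The test was edgeR 4.0.16 (R 4.3.3), quasi-likelihood, two-sided, miR-99 KD against Scr, with TMM factors, a minimum count of 10 in its filter and Benjamini-Hochberg adjustment over 15591 genes at 0.05. Standard errors derive from the test statistic. DESeq2 1.42.0 and limma-voom 3.58.1 ran on the same genes. All 3 were tested on simulated data. Profiles for likeness used log2 CPM with a prior count of 2.

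Equal replicate numbers are not said to mark shared mice or days. Deviations of same-numbered libraries correlated at −0.43 across genes. Named by rule were the 10 members, Ccnd1, Cdkn1c, the 2 genes with the smallest p in each of 6 lists, the nearest profile of each member, and the sort gate genes. Ccne1, Ccna2, the genes near Cdkn2c and single genes of the marker lists (Mpo, Ltf and Ngp among them) were chosen after their values were seen. Members and lists were chosen with earlier results of these data known. Counting precision follows the counts given. Reads without molecular identifiers are not independent molecules.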

Additional observations from a re-analysis of the deposited data

How the results depend on the processing

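The number of genes called was 0 in the reported fit, with DESeq2 size factors in edgeR, limma-voom and the stricter filter (minimum count 50). It was 23 with upper-quartile factors, 9 with library totals alone, 9 with no filter and 261 with DESeq2. Leaving out 1 library gave 0 to 294 genes, the highest without Scr 1, and 0 without each of the other 3. With the replicate number as a block edgeR called 0 genes. With the numbers crossed, a pairing chosen after seeing the data, it called 28.

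The log2 fold change of Cdkn2c was positive under all 12 alternatives (2.85 to 3.77), and it was called with upper-quartile factors (3.27), by DESeq2 (3.37) and without Scr 1 (3.65). With the replicate block it was 3.28 and not called. Of the other members none was called under any alternative. Signs turned for Cdkn2b and Cdkn2d without miR-99 KD 2 (range over left-out libraries −1.09 to 0.28 and −0.14 to 0.34), for Cdkn1b without Scr 2 or miR-99 KD 2 (−0.29 to 0.050), and for Cdk6 without either of the same libraries (−0.15 to 0.26), with DESeq2 size factors (0.017), by DESeq2 (0.017) and with no filter (0.030). The cause was not tested. Cdkn2a, Cdkn1a, Cdk4, Ccnd2 and Ccnd3 kept their sign throughout, but Cdkn2a ran from −1.55 without miR-99 KD 1 to −0.063 without miR-99 KD 2. Cdkn2a and Cdkn2b had no value under the stricter filter. Levels per kilobase moved by more than the spread between libraries in 5 of 10 members with the longest transcript, and in 0 with TMM scaling. With 2 mice per group, 15 to 52 counts in Cdkn2a and Cdkn2b limit what can be seen in them.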
